A study of Mus musculus with 12 samples.

Results

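The collagen genes of 4 mouse melanoma cell lines are described here, from RNA sequencing counts of 12 libraries. A collagen gene was any gene whose symbol reads Col, a number, a and a number, and 44 of the 55471 gene identifiers in the count tables met that rule. They were grouped as 11 fibrillar collagens, 6 basement membrane collagens (the chains of type IV), 9 fibril-associated collagens with interrupted helices (FACIT) and 18 others. There were 2 lines without dOVA in the name, MeVa2.1 and MeVa2.2, and for each a dOVA line, MeVa2.1.dOVA or MeVa2.2.dOVA, with 3 libraries per line numbered as replicates 1 to 3 in the sample titles. The series is about MeVa2.1.dOVA, which its title calls immune-refractory. All 12 libraries carry the labels WT for genotype, murine melanoma for cell type and skin with subcutaneous tumour for tissue, and no agent was given to any of them. What dOVA stands for is not given in the labels, and each dOVA line is set here beside the line whose name it extends, called its parent for short. The labels also do not say how the lines were made, how many clones each holds or whether replicates were separate cultures, so p-values measure the spread between these libraries, which may be technical.

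Collagens are secreted proteins whose chains wind around each other into a rope-like helix, and the genes of 1 collagen type usually encode the chains that are built in together. Fibrillar collagens form the tension-bearing fibres of connective tissue, FACIT collagens sit on the surface of those fibres, and type IV collagen forms the sheet-like scaffold of basement membranes, on which melanocytes rest in normal skin. The other collagens include the beaded filaments of type VI, the short-chain networks of type VIII and the proteoglycan-like types XV and XVIII of basement membrane zones.

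The libraries held 16181816 to 35627069 gene counts, and replicate 3 was the deepest library of every line, at 26291546 to 35627069. Correlations of log2(CPM + 1) over 13985 genes, where CPM is the count of a gene per 1000000 gene counts, set 3 libraries apart from their lines. Replicate 2 of MeVa2.1.dOVA correlated at 0.966 and 0.967 with its own line, whose other 2 libraries correlated at 0.988. Replicate 2 of MeVa2.2 correlated at 0.943 and 0.967 with its own line and at 0.979 with replicate 1 of MeVa2.2.dOVA. Replicate 3 of MeVa2.2.dOVA correlated at 0.954 and 0.965 with its own line, whose other 2 libraries correlated at 0.991. Replicate 3 of MeVa2.1 was also nearer to replicate 3 of MeVa2.1.dOVA, at 0.985, than to its own line, at 0.974 and 0.976. Replicate 3 of MeVa2.2 correlated at 0.943 and 0.973 with its own line, close to the values of its replicate 2. Counts of collagens that passed a test are given below with and without the first 3 of these libraries, which leaves 2 libraries in each of 3 lines. These 3 were picked by correlation in these same data, and the 2 libraries numbered replicate 3 of MeVa2.1 and MeVa2.2 were kept. Picking narrows the spread within lines, so counts without the 3 are description only. Of the 10 melanocyte markers listed, Mitf was the most abundant in every library, while 0 to 8 were at 0 counts in a library and their summed level was 9.07 to 61.4 CPM, highest in replicate 1 of MeVa2.2, where 8 of the 10 exceeded 1 CPM. Summed markers of immune cells did not exceed 4.85 CPM, those of endothelial cells 3.33 CPM and those of keratinocytes 3.15 CPM.

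The 6 type IV genes lie in the genome as 3 pairs that start next to each other and are read in opposite directions. In GENCODE M21 on GRCm38 the first exons of Col4a1 and Col4a2 on chromosome 8 share 22 bases. On chromosome 1 the starts of Col4a4 and Col4a3 have 71 bases between them, and on the X chromosome those of Col4a6 and Col4a5 have 1308. The windows below are shown because the levels of these pairs differed in different ways between the lines. Whether the windows bear on those differences was not tested, and none was at hand for Col4a3, whose pair is not printed. Each window is the stretch of 250 bases before the gene's start in RefSeq on GRCm38.p6, read 5′ to 3′ on the gene's own strand. Capitals mark matches to CCAAT (the CCAAT box) or GGGCGG (the GC box) on either strand. The windows lie at chr8:11312827-11313076 (minus strand), chr8:11312555-11312804 (plus strand), chrX:141474077-141474326 (minus strand) and chrX:141475169-141475418 (plus strand), in the order printed. The Col4a1 and Col4a2 windows each lie within the other gene. The Col4a5 window runs past the GENCODE start of that gene, 141475385, and its GGGCGG match lies past that start.
Col4a1: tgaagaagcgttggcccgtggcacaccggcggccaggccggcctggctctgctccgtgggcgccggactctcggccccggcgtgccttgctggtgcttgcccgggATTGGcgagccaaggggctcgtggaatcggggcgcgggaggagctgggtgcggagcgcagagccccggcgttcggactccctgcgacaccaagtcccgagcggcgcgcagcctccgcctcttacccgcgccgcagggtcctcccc
Col4a2: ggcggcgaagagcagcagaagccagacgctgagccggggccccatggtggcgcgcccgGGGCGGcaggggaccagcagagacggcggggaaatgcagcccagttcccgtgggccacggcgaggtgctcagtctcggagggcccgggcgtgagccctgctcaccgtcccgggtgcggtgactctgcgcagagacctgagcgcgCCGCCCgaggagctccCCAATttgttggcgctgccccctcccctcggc
Col4a6: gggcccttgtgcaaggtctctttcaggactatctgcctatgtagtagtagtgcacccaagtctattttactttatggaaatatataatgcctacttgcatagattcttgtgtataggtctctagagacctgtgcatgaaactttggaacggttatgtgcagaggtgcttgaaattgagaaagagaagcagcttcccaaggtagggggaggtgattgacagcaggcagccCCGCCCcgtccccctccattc
Col4a5: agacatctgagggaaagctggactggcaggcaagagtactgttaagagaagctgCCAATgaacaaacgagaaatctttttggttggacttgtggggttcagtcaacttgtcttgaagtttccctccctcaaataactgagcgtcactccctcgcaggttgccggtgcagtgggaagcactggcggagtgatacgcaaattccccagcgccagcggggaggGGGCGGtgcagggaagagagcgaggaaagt

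Of 32851 such windows over all genes, 33.9% hold CCAAT, 32.7% hold GGGCGG and 12.4% hold TATAAA (the TATA box) on at least 1 strand. The Col4a1 window has 1 CCAAT match, on the opposite strand, and the Col4a2 window has 1 CCAAT and 2 GGGCGG matches. The Col4a5 window has 1 match to each, and the Col4a6 window has 1 GGGCGG match. In the Col4a4 window neither motif was matched, and none of these 5 windows holds TATAAA. The GC content was 74.4% for Col4a1, 73.6% for Col4a2, 62.8% for Col4a4, 54% for Col4a5 and 47.6% for Col4a6, against a median of 52.4% over all windows.

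Collagens took 0.956 ± 0.174% of all gene counts in MeVa2.1 and 0.999 ± 0.310% in MeVa2.2 (SD, n = 3 for each line). In the dOVA lines the share was 0.635 ± 0.190% for MeVa2.1.dOVA and was 0.594 ± 0.382% for MeVa2.2.dOVA. In the latter line the share was 0.367% and 0.379% in replicates 1 and 2 and 1.03% in replicate 3. Across single libraries it ran from 0.367% to 1.31%, and the widest 95% Wilson interval of a library was 0.00953 percentage points, which covers counting error only. The class sums are plotted below by library.

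**Figure D1:**
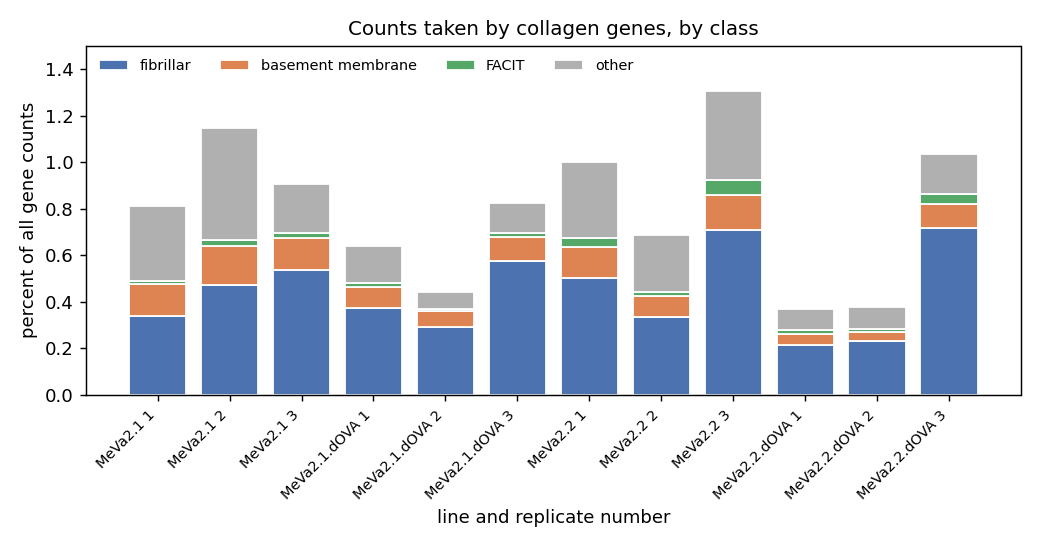
Percent of all gene counts (y axis) taken by the 4 collagen classes, stacked, in each of the 12 libraries (x axis, line and replicate number). The stacks reach 0.367% to 1.31%, and replicate 3 of MeVa2.2.dOVA, at 1.03%, stands above the other 2 libraries of its line, at 0.367% and 0.379%.

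Fibrillar collagens held 41.1% to 69.9% of the collagen counts of a library, type IV collagens 9.74% to 16.7%, FACIT collagens 1.42% to 4.99% and the others 15.8% to 42.1%. Type IV genes together took 0.147 ± 0.0196% of gene counts in MeVa2.1 and 0.0888 ± 0.0164% in its dOVA line, and 0.126 ± 0.0299% in MeVa2.2 and 0.0620 ± 0.0342% in its dOVA line. Fibrillar genes took 0.450 ± 0.10%, 0.414 ± 0.147%, 0.514 ± 0.188% and 0.388 ± 0.285% in the same order, so their line means lay within 1 SD of each other. Per kilobase of exon, which allows levels of different genes to be compared, the most abundant collagen over all libraries was Col1a2 at 164 CPM per kb. Col6a1 followed at 130.01, Col1a1 at 121, Col18a1 at 91.0, Col4a1 at 67.9 and Col3a1 at 64.0 CPM per kb. With the lengths of principal transcripts in place of all exons, Col1a2 was at 382 and Col3a1, at 113, lay above Col4a1, at 76.6 CPM per kb, while the first 4 kept their order. Of the 44 genes, 14 averaged over 100 CPM, and these were 5 fibrillar, 3 type IV, 1 FACIT and 5 other collagens.

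**Figure D2:**
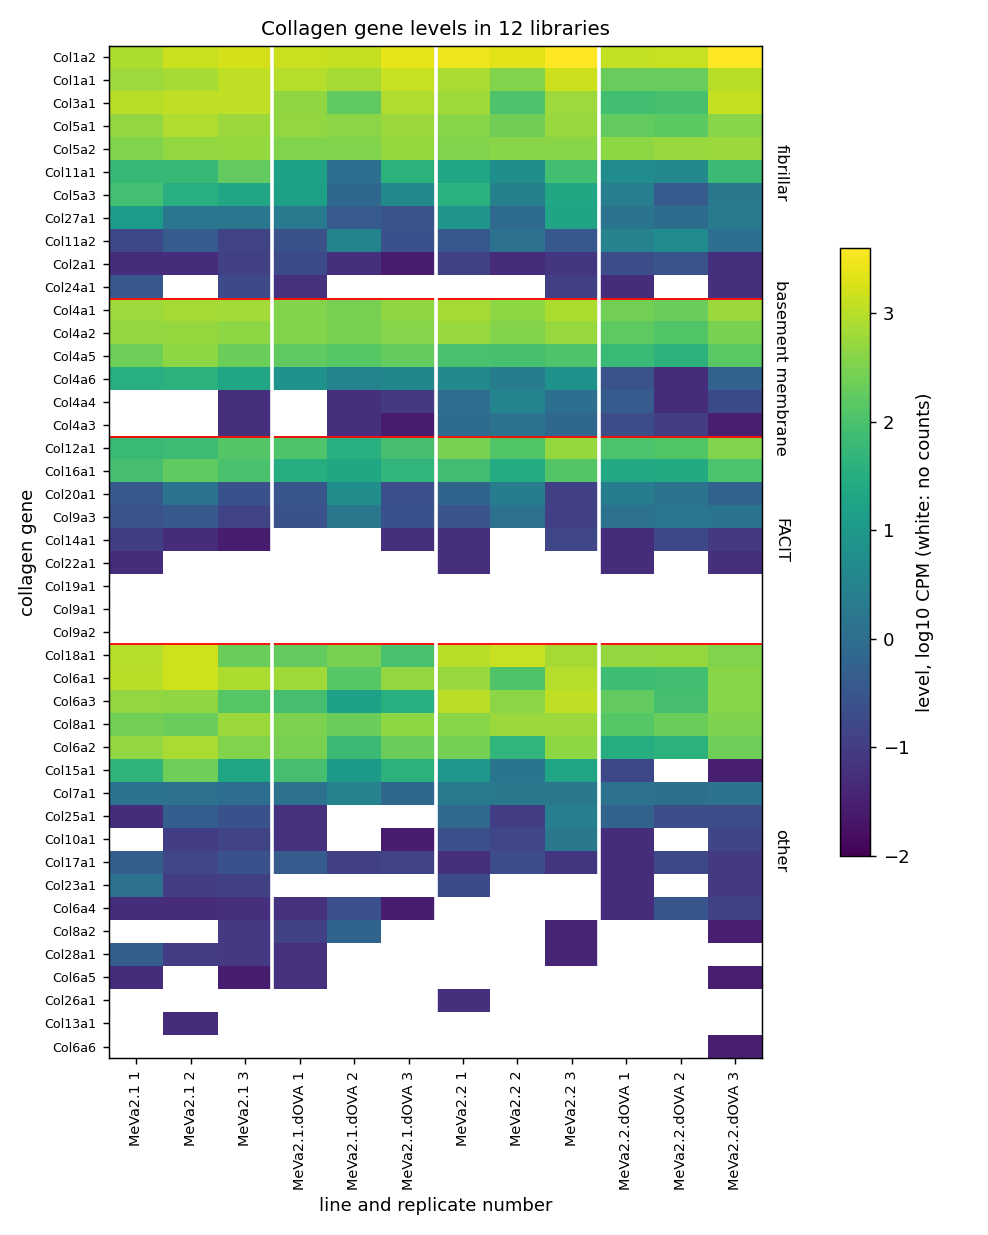
Level of each of the 44 collagen genes (rows, by class and then by level) in the 12 libraries (columns), as log10 CPM on the colour scale, with white for no counts. Type I genes fill the top rows, the lowest rows of each class are near or at 0 counts, and the Col4a3 and Col4a4 rows are brightest in the 3 MeVa2.2 libraries.

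A low-count filter kept 27 collagens, which were tested among 13985 genes with edgeR's quasi-likelihood test. A gene passed at an adjusted p (Benjamini-Hochberg over all tested genes) under 0.05, fold changes are on the log2 scale, and the standard error (SE) is the one implied by the test. Of the 27, 8 differed somewhere among the 4 lines, where 14.2% of all tested genes did, and 16 had an unadjusted p under 0.05, against 30.5% of all genes. The 8 were 5 of the 6 type IV genes, 1 of 9 fibrillar, 0 of 4 FACIT and 2 of 8 other collagens. Of these type IV genes, Col4a3 and Col4a4 passed the filter only through MeVa2.2, where they are high. The adjusted p was 4.2e-04 for Col4a6, 0.00262 for Col4a3, 0.00301 for Col4a4, 0.0052 for Col15a1, 0.0151 for Col4a2, 0.0155 for Col6a3, 0.0195 for Col4a5 and 0.0443 for Col5a3. The count was 21 without all 3 libraries that stand apart, in a fit that also passed more of all genes, as given in the closing section. It was 5 without replicate 1 of MeVa2.2.dOVA and 15 without replicate 3 of that line. With 1 library left out, 1249 to 2974 of all genes passed.

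Col4a1 and Col4a2 encode the chains of the type IV network found in nearly all basement membranes. Col4a1 (chromosome 8, 11198423 to 11312826 on GRCm38) was at 601, 687 and 675 in MeVa2.1 against 367, 277 and 473 in its dOVA line, and at 692, 455 and 819.7 in MeVa2.2 against 256, 209 and 570.1 in its dOVA line, in CPM for replicates 1, 2 and 3 of each line. All 3 MeVa2.1.dOVA libraries lay below all 3 of MeVa2.1, while MeVa2.2.dOVA overlapped MeVa2.2 through its replicate 3. The log2 fold change was -0.83 (SE 0.33, adjusted p = 0.384) in MeVa2.1.dOVA against MeVa2.1 and -0.97 (SE 0.33, adjusted p = 0.172) in MeVa2.2.dOVA against MeVa2.2, and neither passed. Col4a2 (chromosome 8, 11312805 to 11449287) was at 483, 516 and 441 in MeVa2.1 against 358, 295 and 379.7 in its dOVA line, and at 553, 366 and 554 in MeVa2.2 against 161, 121 and 293 in its dOVA line. Its levels in each dOVA line lay below every library of the line it extends. Col4a2 fell in MeVa2.2.dOVA, with -1.40 (SE 0.27, adjusted p = 0.0314), and its value in MeVa2.1.dOVA was -0.50 (SE 0.27, adjusted p = 0.536).

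Col4a5 and Col4a6 encode chains that are built in together in the basement membranes of skin and smooth muscle. Col4a6 (X chromosome, 141165403 to 141474076) was at 33.5, 40.1 and 19.2 in MeVa2.1 against 7.29, 3.27 and 3.66 in its dOVA line, and at 4.56, 2.26 and 7.45 in MeVa2.2 against 0.270, 0.0533 and 0.564 in its dOVA line. MeVa2.1 was the highest line, MeVa2.2.dOVA the lowest, and the libraries of MeVa2.1.dOVA and MeVa2.2 overlapped between them. Col4a6 fell in MeVa2.2.dOVA against MeVa2.2, with -3.92 (SE 0.65, adjusted p = 0.0178). It was higher in MeVa2.1 than in MeVa2.2, with 2.73 (SE 0.57, adjusted p = 0.0207), and higher in MeVa2.1.dOVA than in MeVa2.2.dOVA, with 3.91 (SE 0.65, adjusted p = 0.00318). In MeVa2.1.dOVA against MeVa2.1 its value was -2.74 (SE 0.57, adjusted p = 0.0620), and in a fit with replicate number as a block (the replicate block) it passed at -2.84 (adjusted p = 0.0224). The MeVa2.2.dOVA libraries held 25 Col4a6 counts in all, so its counting error is largest there. Summed over libraries, MeVa2.2 had 14.4 times the Col4a6 of MeVa2.2.dOVA per gene count (exact 95% counting interval 9.60 to 22.6). Such intervals, here and below, cover counting error only and leave out the spread between libraries.

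Col4a5 (X chromosome, 141475385 to 141689234) was at 235, 452 and 224 in MeVa2.1 against 174, 139 and 185 in its dOVA line, and at 99.2, 93.5 and 114 in MeVa2.2 against 61.9, 39.3 and 145 in its dOVA line. Every MeVa2.1 library lay above every MeVa2.2 library, and Col4a5 was higher there, with 1.60 (SE 0.41, adjusted p = 0.0495). Against their parents the dOVA lines gave -0.90 (SE 0.40, adjusted p = 0.433) for the MeVa2.1.dOVA line and -0.37 (SE 0.40, adjusted p = 0.674) for MeVa2.2.dOVA. The ratio of Col4a5 to Col4a6 counts was 9.98 ± 2.58 in MeVa2.1 and 39.0 ± 13.7 in its dOVA line, and 26.1 ± 13.5 in MeVa2.2 (SD, n = 3). In MeVa2.2.dOVA it was 229, 737 and 258 in replicates 1, 2 and 3, on 5, 1 and 19 Col4a6 counts, so the middle value rests on 1 count. Each of these 3 lay above the 9 other libraries.

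Col4a3 and Col4a4 encode chains that join Col4a5 in the basement membrane of the kidney glomerulus. Both were near 0 in these lines except MeVa2.2. Col4a3 (chromosome 1, 82586921 to 82722059) was at 0, 0 and 0.0561 in MeVa2.1 against 0, 0.0574 and 0.0288 in its dOVA line, and at 0.888, 1.37 and 0.799 in MeVa2.2 against 0.216, 0.107 and 0.0297 in its dOVA line. Col4a4 (chromosome 1, 82448423 to 82586849) was at 0, 0 and 0.0561 in MeVa2.1 against 0, 0.0574 and 0.0863 in its dOVA line, and at 1.01, 3.37 and 1.10 in MeVa2.2 against 0.431, 0.0533 and 0.178 in its dOVA line. The 3 MeVa2.2 libraries lay above all 9 others for both genes. MeVa2.1 held 2 counts of each gene over its 3 libraries, against 62 of Col4a3 and 110 of Col4a4 in MeVa2.2. Per gene count the MeVa2.2 level was 36.6 times that of MeVa2.1 for Col4a3 (exact 95% counting interval 9.71 to 309) and 64.9 times for Col4a4 (17.5 to 543).

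Both genes passed the low-count filter only through MeVa2.2, the line where they are high. Their tests against that line are therefore not independent of the filter. The difference between MeVa2.1 and MeVa2.2 passed for Col4a3 (adjusted p = 0.00807) and for Col4a4 (adjusted p = 0.00788). In MeVa2.2.dOVA against MeVa2.2 the fitted log2 fold changes were -3.21 (SE 0.76, adjusted p = 0.0564) for Col4a3 and -3.09 (SE 0.81, adjusted p = 0.0822) for Col4a4, neither of which passed. Exons of Col4a3 overlap C430014B12Rik on the other strand over 5.65% of their length, and whether reads were counted by strand is not given in the sources used here. All 6 type IV genes are plotted below.

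**Figure D3:**
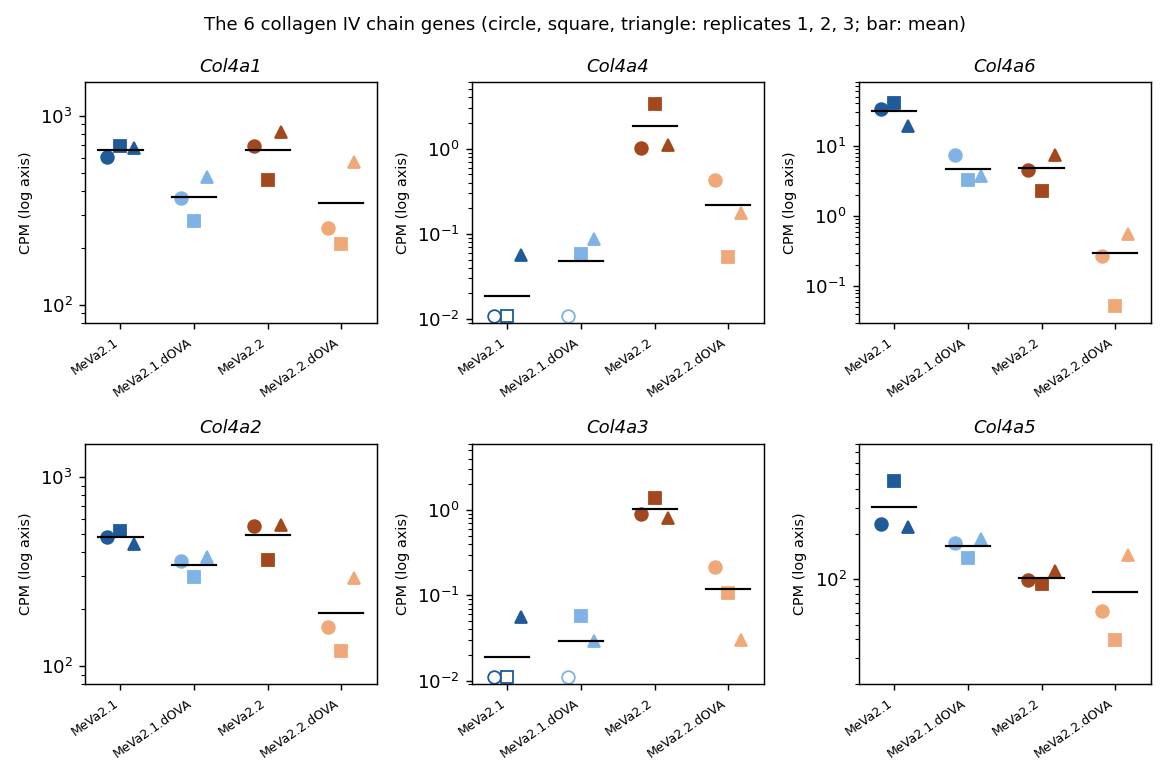
CPM (log axis, its range differing between panels) of the 6 type IV collagen genes in the 4 lines, 1 panel a gene, with neighbouring genes in the same column. Circles, squares and triangles are replicates 1, 2 and 3, bars are line means, and open symbols at the foot of a panel are libraries with no count. Col4a3 and Col4a4 are high only in MeVa2.2 among these lines, and Col4a6 spans 0.0533 to 40.1 CPM.

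Type I collagen, the main fibre of skin, is built from Col1a1 and Col1a2 chains. Col1a1 was at 602, 721 and 1168 in MeVa2.1 against 967, 691 and 1364 in its dOVA line, and at 794, 351 and 1460.4 in MeVa2.2 against 200.3, 200.3 and 1016 in its dOVA line. The lines overlapped, and replicate 3 was the highest library of each line. Its log2 fold change was 0.27 (SE 0.62, adjusted p = 0.912) in MeVa2.1.dOVA against MeVa2.1 and -0.94 (SE 0.63, adjusted p = 0.480) in MeVa2.2.dOVA against MeVa2.2. Col1a2 was at 797, 1437 and 1763 in MeVa2.1 against 1433, 1263 and 2413 in its dOVA line, and at 2799.8, 2224 and 3946 in MeVa2.2 against 1246, 1322 and 3844 in its dOVA line. Every MeVa2.2 library lay above every MeVa2.1 library, and the dOVA lines overlapped their parents. The values were 0.34 (SE 0.44, adjusted p = 0.829) and -0.53 (SE 0.44, adjusted p = 0.574) for the 2 dOVA lines in the same order, and -1.15 (SE 0.44, adjusted p = 0.193) for MeVa2.1 against MeVa2.2, which passed with the replicate block at -1.17 (adjusted p = 0.0178).

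Type III collagen, encoded by Col3a1, is a fibre of elastic tissues and healing wounds. Col3a1 was at 1019.9, 1131 and 1138 in MeVa2.1 against 469.9, 168 and 846 in its dOVA line, and at 618, 108 and 612 in MeVa2.2 against 81.7, 94.2 and 1254 in its dOVA line. Replicate 3 of MeVa2.2.dOVA was over 10 times its other 2 libraries and replicate 2 of MeVa2.2 was the low library of its line. The MeVa2.1 libraries were close together and all above the MeVa2.1.dOVA libraries. The log2 fold change was -1.17 (SE 0.95, adjusted p = 0.710) in MeVa2.1.dOVA and 0.03 (SE 0.94, adjusted p = 0.991) in MeVa2.2.dOVA. Without replicate 3 of MeVa2.2.dOVA the latter was -2.33 (adjusted p = 0.0966), so its direction rests on that library, and without replicate 2 of MeVa2.2 it was -0.44. It was -2.76 (adjusted p = 0.00264) without all 3 libraries that stand apart.

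Type V and XI collagens form the core of fibres and set their thickness. Col5a3, the least abundant type V chain, was at 84.9, 31.7 and 21.1 in MeVa2.1 against 15.6, 0.747 and 4.55 in its dOVA line, and at 38.5, 2.79 and 22.1 in MeVa2.2 against 2.48, 0.427 and 1.78 in its dOVA line. Replicate 2 was the lowest library in 3 of the 4 lines and replicate 1 the highest in all 4, and each dOVA line lay below all libraries of its parent. The values of -2.76 (SE 1.05, adjusted p = 0.356) for the MeVa2.1.dOVA line and -3.78 (SE 1.12, adjusted p = 0.119) for MeVa2.2.dOVA did not pass, and with the replicate block the first was -3.39 (adjusted p = 0.0224). Col11a1 was at 57.8, 57.2 and 181 in MeVa2.1 against 16.3, 1.09 and 40.6 in its dOVA line, and at 20.7, 6.16 and 80.7 in MeVa2.2 against 5.28, 4.32 and 65.8 in its dOVA line, with replicate 3 highest and replicate 2 lowest in every line. Its value in MeVa2.1.dOVA was -2.35 (SE 1.28, adjusted p = 0.540), and -3.02 (adjusted p = 0.0422) with the block. Col5a2, the type V chain with the smallest spread, ranged from 339 to 583 CPM over all 12 libraries. All 3 MeVa2.2.dOVA libraries of Col5a2, at 437, 539 and 583 CPM, lay above those of MeVa2.2, at 345, 395 and 402, with 0.42 (SE 0.22, adjusted p = 0.360). The other tested fibrillar genes, Col5a1, Col27a1 and Col11a2, ranged from 154 to 842 CPM, 0.288 to 18.7 CPM and 0.140 to 5.17 CPM.

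FACIT collagens link fibres to their surroundings, and none of the 4 tested passed in any of the 6 tests of the main design. Col12a1, a tendon and skin collagen, was at 61.7, 68.3 and 127 in MeVa2.1 against 116, 32.3 and 90.4 in its dOVA line, and at 294, 122 and 525 in MeVa2.2 against 103, 122 and 347 in its dOVA line. The MeVa2.1 libraries overlapped those of MeVa2.2 only through replicate 2 of MeVa2.2. The log2 fold change of -1.86 (SE 0.61, adjusted p = 0.126) for MeVa2.1 against MeVa2.2 passed with the block at -1.68 (adjusted p = 0.0246), and MeVa2.2.dOVA against MeVa2.2 gave -0.76 (SE 0.59, adjusted p = 0.551). Col16a1, which associates with small fibres and microfibrils, was at 88.2, 169 and 98.4 in MeVa2.1 against 31.0, 22.9 and 48.8 in its dOVA line, and at 75.0, 28.1 and 126 in MeVa2.2 against 23.9, 26.8 and 105 in its dOVA line. The MeVa2.1.dOVA libraries lay below all MeVa2.1 libraries, with -1.82 (SE 0.62, adjusted p = 0.300). Col20a1 was at 0.378, 1.46 and 0.253 in MeVa2.1 against 0.309, 5.92 and 0.230 in its dOVA line, and at 0.651, 2.42 and 0.114 in MeVa2.2 against 2.26, 1.44 and 0.564 in its dOVA line, and its lowest adjusted p in any pairwise or interaction test was 0.704. Col9a3 stayed at or below 1.72 CPM, and replicate 2 of MeVa2.1.dOVA was the highest library for both genes.

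Col6a1, Col6a2 and Col6a3 encode the chains of type VI collagen, which forms beaded filaments near the cell surface. Col6a1 was at 1002, 1571 and 831 in MeVa2.1 against 641, 142 and 482 in its dOVA line, and at 547, 114 and 938 in MeVa2.2 against 74.0, 79.2 and 412 in its dOVA line. MeVa2.1 lay above MeVa2.1.dOVA without overlap, while replicate 3 of MeVa2.2.dOVA lay among the MeVa2.2 libraries. The values were -1.46 (SE 0.80, adjusted p = 0.542) and -1.56 (SE 0.80, adjusted p = 0.360) for the MeVa2.1 and MeVa2.2 dOVA lines. Col6a3 was at 482, 476 and 133 in MeVa2.1 against 89.4, 15.9 and 34.7 in its dOVA line, and at 1064, 417 and 1169 in MeVa2.2 against 181, 87.0 and 402 in its dOVA line. Both dOVA lines lay below all libraries of their parents, and replicates 1 and 3 of MeVa2.2 were the highest libraries. The values were -3.00 (SE 0.75, adjusted p = 0.137) for the MeVa2.1.dOVA line and -2.03 (SE 0.72, adjusted p = 0.184) for MeVa2.2.dOVA, and the first passed with the block at -3.36 (adjusted p = 0.0371). Between the dOVA lines Col6a3 gave -2.21 (SE 0.73, adjusted p = 0.0749), lower in MeVa2.1.dOVA, and between the parents -1.24 (SE 0.70, adjusted p = 0.405).

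Col15a1 and Col18a1 encode the 2 proteoglycan-like collagens, and Col18a1 is the source of endostatin. Col15a1 (chromosome 4, 47208161 to 47313167) was at 47.0, 229 and 19.8 in MeVa2.1 against 88.5, 11.5 and 39.4 in its dOVA line, and at 9.88, 1.53 and 19.6 in MeVa2.2 against 0.162, 0 and 0.0297 in its dOVA line. MeVa2.2.dOVA was near 0 in all 3 libraries and below every library of the other lines, while the 3 MeVa2.1 libraries spread over more than 10 times. Col15a1 fell in MeVa2.2.dOVA against MeVa2.2, with -7.40 (SE 1.62, adjusted p = 0.0453), and was higher in MeVa2.1.dOVA than in MeVa2.2.dOVA, with 9.56 (SE 1.64, adjusted p = 0.00377). The fitted values rest on 4 counts in MeVa2.2.dOVA, where MeVa2.2 had 711 and MeVa2.1.dOVA had 3001. Per gene count these are ratios of 203 (exact 95% counting interval 78.9 to 747) and 779 (304 to 2862), with intervals that leave out the spread between libraries. In MeVa2.1.dOVA against MeVa2.1 the value was -1.15 (SE 0.98, adjusted p = 0.725), and without replicate 2 of MeVa2.1 it turned to 0.47. MeVa2.1 against MeVa2.2 gave 3.31 (SE 1.06, adjusted p = 0.118). The difference between the 2 dOVA differences was 6.25 (SE 1.94, adjusted p = 0.318) for Col15a1, which did not pass.

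Col18a1 was at 934, 1561 and 217 in MeVa2.1 against 180.3, 296 and 99.5 in its dOVA line, and at 992, 1318 and 711 in MeVa2.2 against 487, 528 and 342 in its dOVA line. Replicate 3 was the lowest library of every line for this gene and replicate 2 the highest, and replicate 3 of MeVa2.1 lay among the MeVa2.1.dOVA libraries. The log2 fold changes were -2.26 (SE 0.62, adjusted p = 0.179) in MeVa2.1.dOVA and -1.17 (SE 0.60, adjusted p = 0.357) in MeVa2.2.dOVA. The first passed with the block, at -2.10 (adjusted p = 0.0150). Col8a1, a short-chain collagen of vessel walls and the corneal base layer, was at 260.3, 208 and 571 in MeVa2.1 against 307, 225 and 436 in its dOVA line, and at 398, 569 and 567 in MeVa2.2 against 133, 214 and 323 in its dOVA line. All MeVa2.2.dOVA libraries lay below those of MeVa2.2, with -1.23 (SE 0.40, adjusted p = 0.145), and MeVa2.1.dOVA overlapped MeVa2.1.

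Chains of 1 collagen kept their ratio in some types and not in others. Col6a1 to Col6a2 counts stood between 1.80 and 2.42 in all 12 libraries, although Col6a1 ranged from 74.0 to 1571 CPM and Col6a2 from 30.6 to 785 CPM. Col4a1 to Col4a2 stood between 0.941 and 1.94, at 1.37 ± 0.148 in MeVa2.1 and 1.07 ± 0.158 in its dOVA line, and 1.32 ± 0.134 in MeVa2.2 and 1.75 ± 0.180 in its dOVA line. Col1a2 to Col1a1 was 1.61 ± 0.345 in MeVa2.1 and 1.69 ± 0.185 in its dOVA line, and 4.19 ± 1.91 in MeVa2.2 and 5.54 ± 1.53 in its dOVA line. The 6 libraries of the 2 MeVa2.1 lines stood between 1.32 and 1.99 and the 6 of the MeVa2.2 lines between 2.70 and 6.60, without overlap. Col6a3 to Col6a1 was 0.315 ± 0.161, 0.108 ± 0.0339, 2.28 ± 1.24 and 1.51 ± 0.815 in the same line order, again without overlap between the MeVa2.1 and the MeVa2.2 lines. These ratios were not tested, and since they are of counts they do not give the ratio of chains per length.

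**Figure D4:**
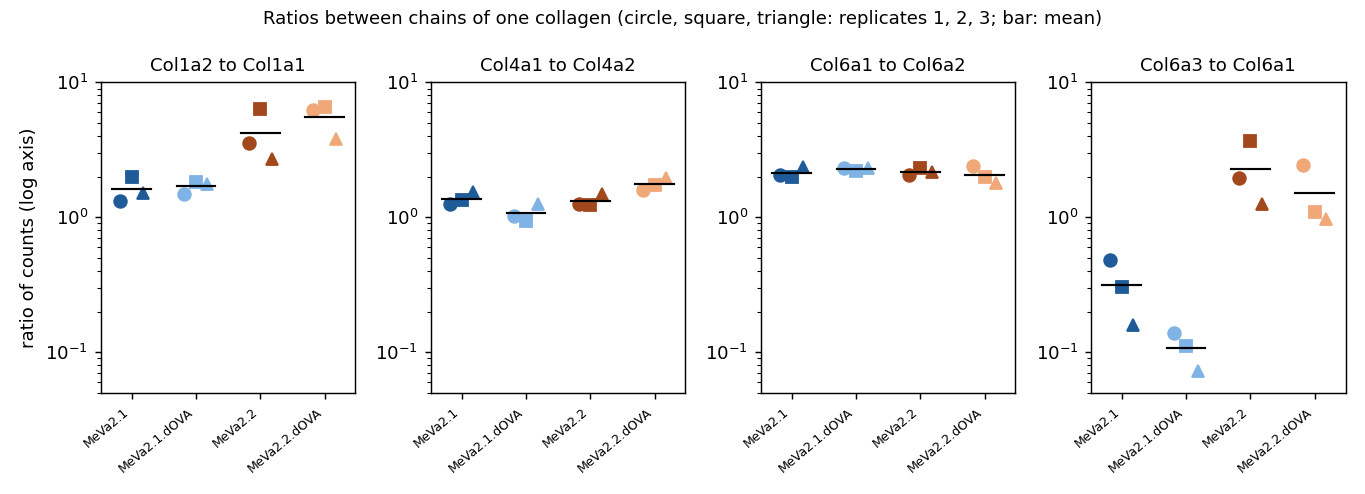
Ratio of counts between chain genes of types I, IV and VI (y axis, log scale) in the 4 lines. Circles, squares and triangles are replicates 1, 2 and 3, and bars are means. Col6a1 to Col6a2 stays between 1.80 and 2.42, while Col1a2 to Col1a1 and Col6a3 to Col6a1 are higher in both MeVa2.2 lines than in both MeVa2.1 lines.

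In MeVa2.1.dOVA against MeVa2.1, collagens were more often lower than higher, but none passed in the main fit, which leaves out the replicate block. Replicate numbers were taken to pair the libraries of this comparison, so its values with the block are given below as well. Of 27 tested, 19 had a negative and 8 a positive log2 fold change, with a median of -0.83 against 0.00 for all tested genes. The edgeR test called 0 collagens, where it called 0.486% of all genes (0.386% as lower), and 9 collagens had an unadjusted p under 0.05, where 11.2% of all genes did. All MeVa2.1.dOVA libraries lay below all MeVa2.1 libraries for 11 collagens, where they did for 10.4% of all genes, and above them for 0, against 10.7% of all genes. With the replicate block 5 collagens passed, all lower (Col4a6, Col6a3, Col18a1, Col5a3 and Col11a1), and DESeq2 called 3 of these (Col4a6, Col6a3 and Col18a1). Both of these fits also passed more of all genes than the main fit, as given in the closing section. Leaving out replicate 3 of MeVa2.1 gave 1 (Col18a1), leaving out replicate 2 of MeVa2.2 gave 1 (Col4a6), and 0 passed without all 3 libraries that stand apart. With 1 library left out, 1 to 83 of all genes passed.

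In MeVa2.2.dOVA against MeVa2.2 the type IV gene pair members Col4a2 and Col4a6 and the type XV gene Col15a1 fell. These are 3 of 27 tested collagens, where 1.57% of all genes fell, and 0 collagens rose, against 0.422% of all genes. At an unadjusted p under 0.05 there were 11 collagens, against 16.4% of all genes. The median over collagens was -0.97 against -0.02 for all genes, with 22 negative and 5 positive values. All MeVa2.2.dOVA libraries lay below all MeVa2.2 libraries for 10 collagens (7.49% of all genes) and above them for 2 (9.83% of all genes), namely Col5a2 and Col9a3. All 6 type IV genes had negative values, from -3.92 for Col4a6 to -0.37 for Col4a5. For Col4a3 and Col4a4 a negative sign was favoured in advance, since both passed the low-count filter only through MeVa2.2. Both are also among the 10 collagens without overlap. A positive sign was likewise favoured in advance for Col9a3 and Col11a2. These genes passed the low-count filter only through MeVa2.2.dOVA, the line where their means are highest. With 1 library left out, 20 to 447 of all genes passed in this comparison. The count of collagens was 0 without replicate 1 of MeVa2.2, replicate 1 of MeVa2.2.dOVA or replicate 2 of MeVa2.2.dOVA. It was 1 (Col4a6) without replicate 3 of MeVa2.2 or without replicate 1 of MeVa2.1 or replicate 1 or 3 of MeVa2.1.dOVA, which enter only the shared spread. Without replicate 3 of MeVa2.2.dOVA it was 3 (Col4a1, Col4a2 and Col4a6), and without all 3 libraries that stand apart it was 18, 16 lower and 2 higher (Col9a3 and Col11a2), in a fit that called 4110 of all genes. Replicate numbers were not taken to pair the libraries of this comparison, so its values with the replicate block stand in the closing section.

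**Figure D5:**
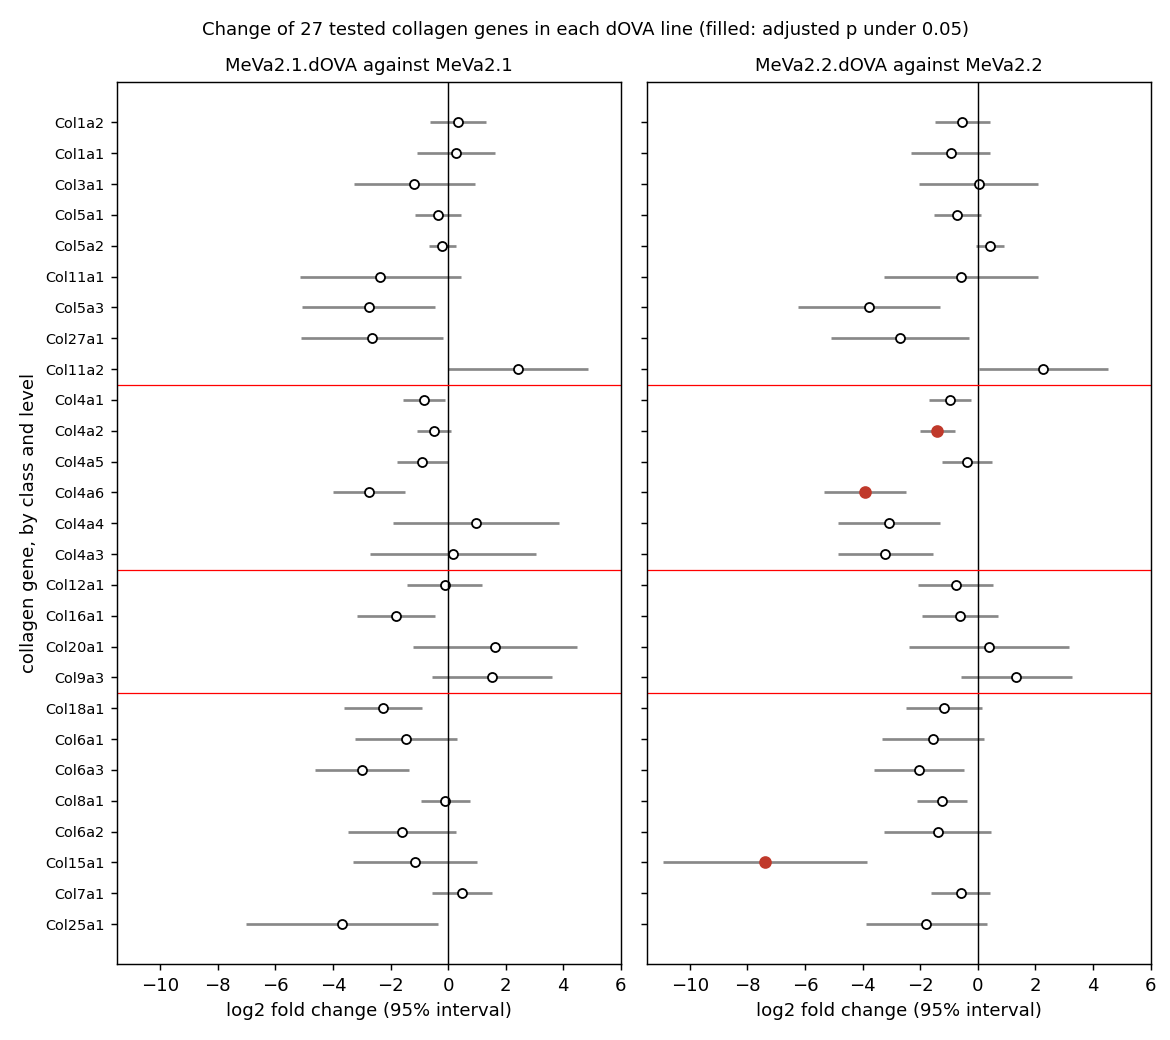
Log2 fold change with its 95% interval (x axis) of the 27 tested collagens (y axis, by class and level) in each dOVA line against the line it extends. Values are from the fit without the replicate block. Filled red points have an adjusted p under 0.05: none in MeVa2.1.dOVA, and Col4a2, Col4a6 and Col15a1 in MeVa2.2.dOVA, at -1.40, -3.92 and -7.40.

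The summed level of fibroblast markers was lower in the dOVA lines as well. The 10 listed, of which none is a collagen, summed to 215 to 260.1 CPM in MeVa2.1 and 52.1 to 112 in MeVa2.1.dOVA. They summed to 173 to 262 CPM in MeVa2.2 and 19.4 to 56.5 in MeVa2.2.dOVA, with Pdgfra the most abundant marker in all libraries but 1, where it was Postn. That was replicate 3 of MeVa2.1, where Postn gave 138 of 215 CPM. Pdgfra alone was at 101 CPM in replicate 1 of MeVa2.1.dOVA, so it overlapped between these 2 lines although the sums did not. Of the 10 markers, 1 to 3 exceeded 1 CPM in a dOVA library and 3 to 8 in a library of the parents. Among 9 tested, 1 fell in MeVa2.1.dOVA (Dcn), where 0.386% of all genes fell, and 3 in MeVa2.2.dOVA (Dcn, Thy1 and Pdgfra), where 1.57% did. Dcn, a small proteoglycan that binds collagen fibres, was at 0.267 to 4.17 CPM over all libraries, and between 0 and 3 of the markers were at 0 counts in a library. Smooth muscle and pericyte markers summed to 811 to 1628 CPM in MeVa2.1 and 851 to 1278 in its dOVA line, and to 445 to 790.3 CPM in MeVa2.2 and 72.2 to 445 in its dOVA line. Cspg4 was the most abundant of them in every library but replicate 3 of MeVa2.2.dOVA, where it was Acta2, at 268 of 445 CPM. In replicate 2 of MeVa2.1 Cspg4 gave 1596 of 1628 CPM, so these sums say more about single genes than about the list. All 6 tested melanocyte markers had negative values in MeVa2.2.dOVA against MeVa2.2 (median -3.65, none passing), and their highest library was replicate 1 of MeVa2.2, with Dct at 15.9, Tyrp1 at 12.3 and Pmel at 6.39 CPM. Of 6 tested Schwann cell markers, Foxd3 (log2 fold change 8.26, adjusted p = 1.4e-04) and Ngfr (4.09, adjusted p = 0.0438) were higher in MeVa2.1 than in MeVa2.2, where 2.82% of all genes were. Between the dOVA lines Foxd3 and S100b were higher and Cdh19 lower in MeVa2.1.dOVA, where 6.45% of all genes were higher and 4.81% lower. In each of these 2 comparisons 4 of the 6 had positive and 2 had negative values. The part of these cell types in the collagen values was not tested, and in such bulk libraries fewer cells of a type and less RNA per cell cannot be told apart.

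Between the lines without dOVA, the 4 collagens that passed were all type IV genes. Col4a5 and Col4a6 were higher in MeVa2.1, and Col4a3 and Col4a4 were higher in MeVa2.2, so that the 2 genes of each of these pairs differed in the same direction. For Col4a3 and Col4a4 that direction was favoured in advance, since both passed the low-count filter only through MeVa2.2. These are 4 of 27 tested collagens, where 4.48% of all genes passed (2.82% higher in MeVa2.1 and 1.66% lower). The median over collagens was -0.05 against -0.02 over all genes. With the block 6 passed, the added ones being Col1a2 and Col12a1, while more of all genes passed too, as given in the closing section. With 1 library left out, 279 to 775 of all genes passed. Col4a3 and Col4a4 passed under all 19 alternatives run, which refit the same counts and so are not independent support. Col4a6 did not pass without replicate 1 or 2 of MeVa2.1 or replicate 1 or 2 of MeVa2.2, and Col4a5 did not pass when any library other than replicates 2 and 3 of MeVa2.2.dOVA was left out, so the count was 2 to 4 with 1 library left out and 5 without all 3 libraries that stand apart (Col12a1 added). MeVa2.1 and MeVa2.2 each also enter 1 of the comparisons with a dOVA line.

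Between the dOVA lines, Col4a6 and Col15a1 were higher in MeVa2.1.dOVA, and 0 collagens were higher in MeVa2.2.dOVA. These are 2 of 27 tested collagens, where 11.3% of all genes passed (6.45% higher in MeVa2.1.dOVA and 4.81% lower). All MeVa2.1.dOVA libraries lay above all MeVa2.2.dOVA libraries for 4 collagens (14.0% of all genes) and below them for 2 (16.0%). Both passed under all 19 alternatives run. With the block 8 passed, while more of all genes passed too, as given in the closing section. These lines also enter the comparisons with their parents. Col4a2 (0.93 (adjusted p = 0.0191)), Col5a1 (1.16 (adjusted p = 0.0305)) and Col1a1 (1.47 (adjusted p = 0.0164)) were added as higher in MeVa2.1.dOVA. Col18a1 (-1.35 (adjusted p = 0.0204)), Col6a3 (-2.33 (adjusted p = 0.0347)) and Col11a2 (-1.77 (adjusted p = 0.0338)) were added as lower. Without the block the values of these 6 were 0.89, 1.08, 1.16, -1.21, -2.21 and -1.26 in the same order. For Col11a2 a negative sign was favoured in advance, since it passed the low-count filter only through MeVa2.2.dOVA. The count was 7 without replicate 3 of MeVa2.2.dOVA, 3 without replicate 1 of MeVa2.1.dOVA, replicate 2 of MeVa2.1.dOVA or replicate 2 of MeVa2.2, and 13 without all 3 libraries that stand apart, where 4634 of all genes passed. With 1 library left out, 796 to 2578 of all genes passed.

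An interaction term tested whether the dOVA difference was of another size in the MeVa2.1 pair than in the MeVa2.2 pair. It called 0 of 27 collagens, where 0.0858% of all genes passed (0.0501% higher and 0.0358% lower), with 3 collagens at an unadjusted p under 0.05, against 8.49% of all genes. DESeq2 called 1, Col15a1, and 6 passed without all 3 libraries that stand apart (Col1a1, Col3a1, Col4a2, Col6a1, Col11a2 and Col12a1), where 1086 of all genes did. The median of the difference was 0.19 over collagens and 0.02 over all genes.

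Collagen chains are modified, folded and exported by a dedicated set of proteins, trimmed outside the cell and read by cell surface receptors. Of 44 tested genes in 4 lists of such proteins, 0 passed in either dOVA line against its parent, where 0.486% of all genes did for MeVa2.1.dOVA and 1.99% did for MeVa2.2.dOVA, shares at which few or none of 44 would pass. All 14 tested hydroxylation and glycosylation genes had negative values in MeVa2.1.dOVA (median -0.49), and 13 of 14 did in MeVa2.2.dOVA (median -0.48). P4hb, the most abundant of them and a subunit of the prolyl hydroxylase, averaged 1114 CPM. Between MeVa2.1 and MeVa2.2, 2 of 11 receptors were higher in MeVa2.1, against 2.82% of all genes. Antxr1, a receptor that binds type VI and type I collagen, was at 94.4, 137 and 115 CPM against 44.1, 41.8 and 54.8 in replicates 1 to 3 of each line, without overlap (log2 fold change 1.32, adjusted p = 0.00728). Itga1, the integrin chain of a type IV collagen receptor, was at 62.6, 34.9 and 46.1 CPM against 9.29, 2.42 and 7.91, also without overlap (2.89, adjusted p = 0.0484).

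Between the dOVA lines 3 of these 44 genes passed, against 11.3% of all tested genes, which is no larger a share. Pcolce2, an enhancer of propeptide cleavage, was at 57.5, 43.1 and 48.7 CPM in MeVa2.1.dOVA against 21.5, 13.9 and 20.8 in MeVa2.2.dOVA, higher in every library (1.45, adjusted p = 0.00395). Creb3l1, a transcription factor that drives collagen secretion in bone, was also higher in MeVa2.1.dOVA (2.25, adjusted p = 0.0418), at 5.44, 2.12 and 2.88 CPM against 1.19, 0.800 and 0.267. Mia2, a receptor that loads large cargo at the endoplasmic reticulum, was lower there (-0.87, adjusted p = 0.0401), at 125, 109 and 153 CPM against 258, 277 and 180.2. The most abundant chaperone of the lists was Hspa5 at 1932 CPM, the most abundant propeptide protease Furin at 235 CPM and the most abundant receptor chain Itgb1 at 1596 CPM, and none of these 3 passed in any of the 6 tests.

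Replicates differed in the level of several collagens, not in the same way in every line. Replicate 3 was the highest library in all 4 lines for Col1a1, Col1a2, Col5a2 and Col11a1, which is 14.8% of the tested collagens against 9.20% of all tested genes. Replicate 2 was the lowest library for 19 of 27 collagens both in MeVa2.1.dOVA and in MeVa2.2 (70.4%), where it was lowest for 45.6% and 44.0% of all tested genes. In MeVa2.1 it went the other way, being lowest for 3 of 27 (11.1% against 41.6% of all genes) and highest for 14 (51.9% against 28.3%), and in MeVa2.2.dOVA it was lowest for 13 (48.1% against 44.6%). The median collagen in replicate 2 had a deviation from its line mean, on the log2 scale, of 0.24 in MeVa2.1 against -0.36 in its dOVA line, and of -0.59 in MeVa2.2 against -0.49 in its dOVA line. In replicate 3 of MeVa2.2.dOVA it was 0.64. No label says what a replicate number stands for. The deposited files of same-numbered libraries share a leading number in all 4 lines, which differs between the replicate numbers and whose meaning is not given. Replicate 3 was also the deepest library of each line, and the part of depth or of that number in the collagen levels was not tested.

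The 17 collagens that did not pass the low-count filter were Col2a1 and Col24a1 among fibrillar, Col9a1, Col9a2, Col14a1, Col19a1 and Col22a1 among FACIT, and Col6a4, Col6a5, Col6a6, Col8a2, Col10a1, Col13a1, Col17a1, Col23a1, Col26a1 and Col28a1 among other collagens. Many of them mark other tissues: Col2a1, Col9a1 and Col9a2 are collagens of cartilage, Col10a1 of its mineralising zone, and Col17a1 anchors keratinocytes to the basement membrane. Col9a1, Col9a2 and Col19a1 had no count in any of the 12 libraries, which allows a level of up to 0.0109 CPM (3 counts over all libraries, counting error only). The highest level of any of the 17 was 1.71 CPM, for Col10a1 in replicate 3 of MeVa2.2. Of the tested collagens, Col7a1, which anchors skin to its basement membrane, ranged from 0.777 to 3.10 CPM and Col25a1, a membrane collagen of neurons, from 0 to 2.43 CPM.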

How the data were processed

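RNA was extracted with a column kit and sequenced after stranded mRNA library preparation, per the labels' protocols. The submitters' processing notes name the build GRCm38 and the tools DESeq2 1.30.1, HTSeq 0.10.0 and STAR 2.6.0c, with no role for each, while the annotation release and the HTSeq strand setting are not given in the sources used here. The deposited values are the authors' raw read counts per Ensembl gene, 1 file per library, with no normalization. Closing tally lines of the files (reads assigned to no gene) entered neither library sizes nor tests, and they held 35.8% to 40.0% of all tallied reads. Gene symbols, exons and lengths came from GENCODE M21, and promoter windows from RefSeq.

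CPM is counts per 1000000 gene counts. All 12 libraries entered 1 edgeR 4.0.16 quasi-likelihood fit with TMM normalization, the filterByExpr filter and a term for each line, in R 4.3.3 with limma 3.58.1. P-values were adjusted by Benjamini-Hochberg over 13985 genes, and each SE is the one implied by the F statistic. The code was tested on simulated data. Alternatives were DESeq2 size factors in the same fit, DESeq2 1.42.0, no filter, the replicate block, the 2 compared lines alone and leaving out each library. Leaving out 2 or all 3 of the libraries that stand apart, and lengths of principal transcripts, were chosen after seeing the data.

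Sample titles give the lines the same replicate numbers. Deviations from line means of same-numbered libraries correlated, over 13985 genes and for replicates 1, 2 and 3, at 0.503, 0.488 and 0.534 between MeVa2.1.dOVA and MeVa2.1. They correlated at 0.429, 0.405 and 0.328 between MeVa2.1 and MeVa2.2, at 0.105, 0.516 and 0.416 between the dOVA lines, and at 0.0815, 0.640 and 0.521 for MeVa2.2 with its dOVA line. The numbers were taken to pair the libraries where all 3 correlations exceed 0.1, so not in the last comparison. The members and the gene lists were chosen with earlier results of these data known. The rule for naming a collagen was a passed test in any comparison or a place among the 3 highest of its class in CPM per kb. Col5a1, Col5a2, Col6a2, Col9a3, Col11a1, Col11a2, Col7a1, Col25a1 and Col27a1 were named after their values were seen.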

Additional observations from a re-analysis of the deposited data

How the results depend on the processing

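With 3 libraries per line, leaving 1 out cannot move a line mean by 1 SD, but single libraries set some means: Col15a1 in MeVa2.1 went from 98.7 to 33.4 CPM without replicate 2, and Col3a1 in MeVa2.2.dOVA from 477 to 88.0 CPM without replicate 3. Of 9 gene and comparison pairs that passed, none changed direction in 171 alternative fits, 134 still passed and 37 did not, and DESeq2 size factors in the edgeR fit moved no count of collagens by over 1.5 times. These fits reuse the same counts, and for Col4a3 and Col4a4 the direction was favoured in advance by the low-count filter. Without a filter, collagens passing numbered 3 in MeVa2.1.dOVA against MeVa2.1 (272 of all genes), 8 in MeVa2.2.dOVA against MeVa2.2 (729), 6 between the dOVA lines, 1 for the interaction (161) and 20 for any difference, with 969 genes between the parents. DESeq2 gave 3 collagens (394 genes), 8 (974), 6 (2428), 1 (272) and 17 (3690) in the same order, with 1207 genes between the parents. Fitted to the compared lines alone, MeVa2.2.dOVA against MeVa2.2 gave 0 collagens and 5 genes, MeVa2.1.dOVA against MeVa2.1 25 genes, the parents 397 and the dOVA lines 1025. Without the 2 libraries numbered replicate 2 that stand apart (MeVa2.1.dOVA and MeVa2.2), 5 collagens (693 genes) passed in MeVa2.2.dOVA against MeVa2.2, 5 collagens between the dOVA lines, and 2 genes in MeVa2.1.dOVA against MeVa2.1. Without these and replicate 3 of MeVa2.2.dOVA, 18 collagens (4110 genes) passed in MeVa2.2.dOVA against MeVa2.2, 13 (4634) between the dOVA lines, 6 (1086) for the interaction, 21 (5167) for any difference, and 18 genes in MeVa2.1.dOVA against MeVa2.1. The cause of these shifts was not tested.

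With the replicate block, 5 collagens (364 genes) passed in MeVa2.1.dOVA against MeVa2.1, 8 (3079) between the dOVA lines, and 1330 genes between the parents. In comparisons where the numbers were not taken to pair the libraries, the block gave 9 collagens (1084 genes) in MeVa2.2.dOVA against MeVa2.2, 8 lower (Col4a1, Col4a2, Col4a3, Col4a4, Col4a6, Col5a3, Col8a1 and Col15a1) and 1 higher (Col11a2). It gave 118 genes for the interaction, and 20 collagens (4340 genes) for any difference. The signs of Col4a3, Col4a4 and Col11a2 in MeVa2.2.dOVA against MeVa2.2 were favoured in advance by the low-count filter. Col3a1 in MeVa2.2.dOVA turned to -0.48 with the block, to -0.44 without the 2 libraries numbered replicate 2 that stand apart and to -2.76 without all 3.

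With 1 library left out, collagens passing ranged from 0 to 1 (1 to 83 genes) in MeVa2.1.dOVA against MeVa2.1 and from 0 to 4 (20 to 447 genes) in MeVa2.2.dOVA against MeVa2.2. They ranged from 2 to 4 (279 to 775 genes) between the parents, 2 to 7 (796 to 2578 genes) between the dOVA lines, 0 to 0 (0 to 13 genes) for the interaction and 5 to 15 (1249 to 2974 genes) for any difference. The log2 fold change in MeVa2.1.dOVA ranged from -1.98 to 0.47 for Col15a1, from -0.020 to 0.58 for Col1a1 and from -0.0022 to 0.58 for Col1a2, and that of Col3a1 in MeVa2.2.dOVA from -2.33 to 0.55. Depth limits the fold changes of Col4a3, Col4a4, Col4a6 and Col15a1, of which some lines held 2 to 25 counts in all.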
